A study of Lolium arundinaceum with 18 samples.

Results

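Leaves of tall fescue (Festuca arundinacea) that had been sprayed with cellulose nanocrystals (CNCs) were compared between droughted and well-watered plants. The comparison took the 3 libraries of the group CNCs (1 to 3) as the reference and the 3 libraries of the group DS_CNCs (1 to 3) as the droughted side, which makes 6 of the 18 RNA-seq libraries of the study. Both groups carried CNCs at 100 mg/L, so water supply was the treatment that separated them. Pots of the CNCs group were held at 65 to 75% of field capacity and those of DS_CNCs at 35 to 45%, and leaves were taken on day 20. The other groups were CK (watered, sprayed with water), DS (droughted, without particles, with no spray stated), Si NPs (watered, silicon nanoparticles at 300 mg/L) and DS_Si NPs (droughted, silicon nanoparticles at the same dose), also with 3 libraries each. Cellulose nanocrystals are short rods cut from cotton cellulose by acid, and the surfactant Tween-20 helped the sprays to wet the leaf. The plants came from seed in greenhouse pots. Whether a library stands for 1 pot was not given in the sources used here, so p-values measure the spread between these libraries. The study asked whether sprayed particles can help slope vegetation to withstand drought.

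Drought closes stomata and slows growth, and a droughted leaf has to handle water loss, surplus light energy and damaged proteins together. Chaperones of the HSP70 and HSP90 families refold or guard proteins with the help of dnaJ partners, and LEA proteins and dehydrins protect cell contents as water is lost. Antenna proteins bind chlorophyll and pass light energy to the photosystems, and their transcripts often fall when a leaf is stressed.

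Expression was read on unigenes, the longest transcript of each cluster in an assembly made from the reads without a genome. The table held 109684 unigenes, of which 42440 carried a description, and 55979 had enough counts to be tested. A description is the best protein match in other plants, and 26287 of the tested unigenes had none. Chromosome positions and sequences were not used here, since no genome of this species was at hand. Levels are given in TPM, a share of all transcripts of a library corrected for length. In bulk leaf RNA, fewer cells of a type and less RNA per cell cannot be told apart.

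Total estimated counts lay between 17347129 and 19896402 in the CNCs libraries and between 16663054 and 22467601 in DS_CNCs. The 10 most abundant unigenes took 7.17 ± 0.45% (SD, n = 3) of the counts in CNCs and 9.88 ± 1.56% (SD, n = 3) in DS_CNCs. A two-sided exact permutation test gave p = 0.1 for that share, the smallest value 3 against 3 libraries allow. The median within-group SD of log2 CPM, counts scaled to library size, was 0.454 in CNCs and 0.631 in DS_CNCs. Root marker unigenes summed to 122 to 161 TPM in CNCs and 91.3 to 122 TPM in DS_CNCs, against 36790 to 49910 TPM and 35510 to 50900 TPM for Calvin cycle unigenes, which are typical of leaves. Markers of flower and seed summed to 206 to 243 TPM in CNCs and 168 to 197 TPM in DS_CNCs. The part of these values in the results was not tested. One library of another group, CK 3, was unlike the rest in its relation to its group. Where CK 1 and CK 2 differed by more than 8-fold, CK 3 lay between them at 3792 of 3821 unigenes (99.2%). Several values that rest on CK are therefore given with and without CK 3, and the others rest on all CK libraries. None of the libraries CNCs 1 to 3 or DS_CNCs 1 to 3 showed this. The spread behind the p-values was estimated from all 18 libraries, CK 3 included. The comparison of CNCs with DS_CNCs was not refitted without CK 3 alone.

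Most of the transcripts that passed the test were lower in the droughted CNC leaves, with chaperones at the highest levels among them, and an antenna transcript was the most abundant of those that were higher. Between CNCs and DS_CNCs, 23 unigenes were called, which is 0.0411% of the 55979 tested. A call required a Benjamini-Hochberg adjusted p below 0.05 in edgeR's quasi-likelihood test and a fold change of more than 2 on the log2 scale in either direction. Of the 23, 18 fell (0.0322% of those tested) and 5 rose (0.00893%). At any fold, 39 unigenes (0.0697%) had an adjusted p below 0.05, 25 of them lower (0.0447%) and 14 higher (0.025%). Without adjustment, 7495 unigenes (13.4%) had p below 0.05, and these divided into 3877 lower (6.93%) and 3618 higher (6.46%). In 17.4% of the tested unigenes all 3 droughted libraries had a lower TPM than any watered one, and in 7.53% a higher one. The median log2 fold change of all tested unigenes was 0.04. The number called depended on single libraries. It was 0 without CNCs 1, without CNCs 2 or without DS_CNCs 2, 1 without CNCs 3 or without DS_CNCs 1, and 13 without DS_CNCs 3. With only the 6 libraries compared in the fit it was 18, and 3 of these were among the 23. The newer form of the same edgeR test, which was chosen after the data had been seen, called 857 unigenes (1.53%), 499 of them lower (0.891%) and 358 higher (0.64%), and these held all 23.

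**Figure D1:**
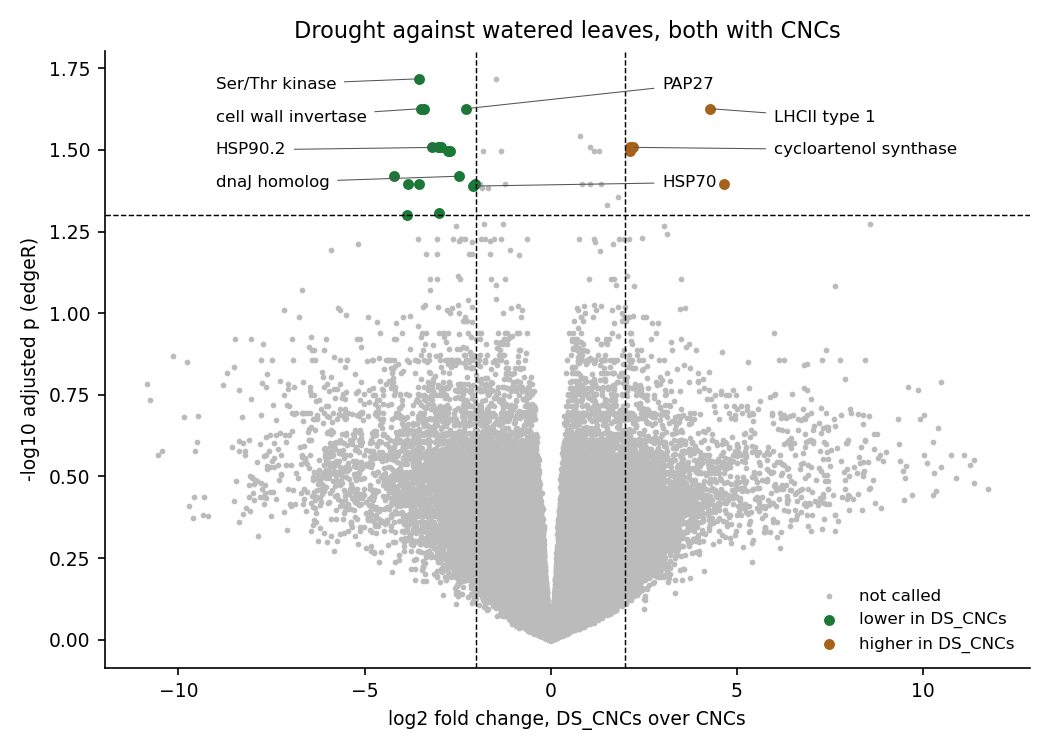
Each point is 1 of the 55979 tested unigenes, with the log2 fold change of DS_CNCs over CNCs on the x axis and the -log10 adjusted p of edgeR on the y axis. Dashed lines mark the thresholds. The 18 green points fell and the 5 brown points rose, and 8 of the called unigenes are named.

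Protein folding gave the highest levels among the unigenes that fell. Cytosolic HSP90.2 (DN28213_c0_g1), a chaperone that holds signalling proteins in an active shape, stood at 512, 260 and 317 TPM in CNCs and at 22.4, 28.4 and 66.4 TPM in DS_CNCs. The lowest CNCs library was well above the highest DS_CNCs library. Its log2 fold change was -2.96 ± 0.45 (SE; adjusted p = 0.031). In leaves without particles the same unigene ran the other way, with a mean of 6.00 TPM in CK and 334 TPM in DS. An HSP70 unigene (DN10941_c0_g1), from the family that binds unfolded stretches of protein, read 225, 159 and 210 TPM in CNCs against 27.6, 36.9 and 55.2 TPM in DS_CNCs. Here too the groups did not overlap, and the log2 fold change was -2.08 ± 0.35 (SE; adjusted p = 0.041). A dnaJ homolog (DN1847_c1_g2), a partner that feeds clients to HSP70, had 328, 174 and 235 TPM in CNCs and 47.5, 30.2 and 62.1 TPM in DS_CNCs. Every droughted library was below every watered one, with a log2 fold change of -2.47 ± 0.40 (SE; adjusted p = 0.038). ERO1-like (DN14845_c0_g1), the oxidase that drives disulfide bond formation in the endoplasmic reticulum, was at 192, 74.2 and 177 TPM in CNCs and at 22.4, 7.69 and 14.8 TPM in DS_CNCs. The second library was the lowest of both groups, and the groups stayed apart by a log2 fold change of -2.95 ± 0.45 (SE; adjusted p = 0.031).

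A further 16 unigenes had an adjusted p below 0.05 with a smaller fold, and not all of them are named. Folding factors were among those that fell. HSP81-3 (DN2054_c0_g1), another HSP90, held 511, 255 and 454 TPM in CNCs and 95.2, 93.4 and 131 TPM in DS_CNCs, a log2 fold change of -1.85 ± 0.31 (SE; adjusted p = 0.041). FKBP62-like (DN4496_c0_g1), a peptidyl-prolyl isomerase that in Arabidopsis works with HSP90, held 28.6, 18.5 and 26 TPM against 7.52, 5.53 and 7.39 TPM, a log2 fold change of -1.69 ± 0.29 (SE; adjusted p = 0.041). DnaJ homolog subfamily B member 4 (DN32066_c0_g1) held 15.0, 11.8 and 10.8 TPM against 4.68, 3.73 and 4.56 TPM, a log2 fold change of -1.34 ± 0.21 (SE; adjusted p = 0.032). In all 3 the watered libraries were the higher ones without overlap.

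**Figure D2:**
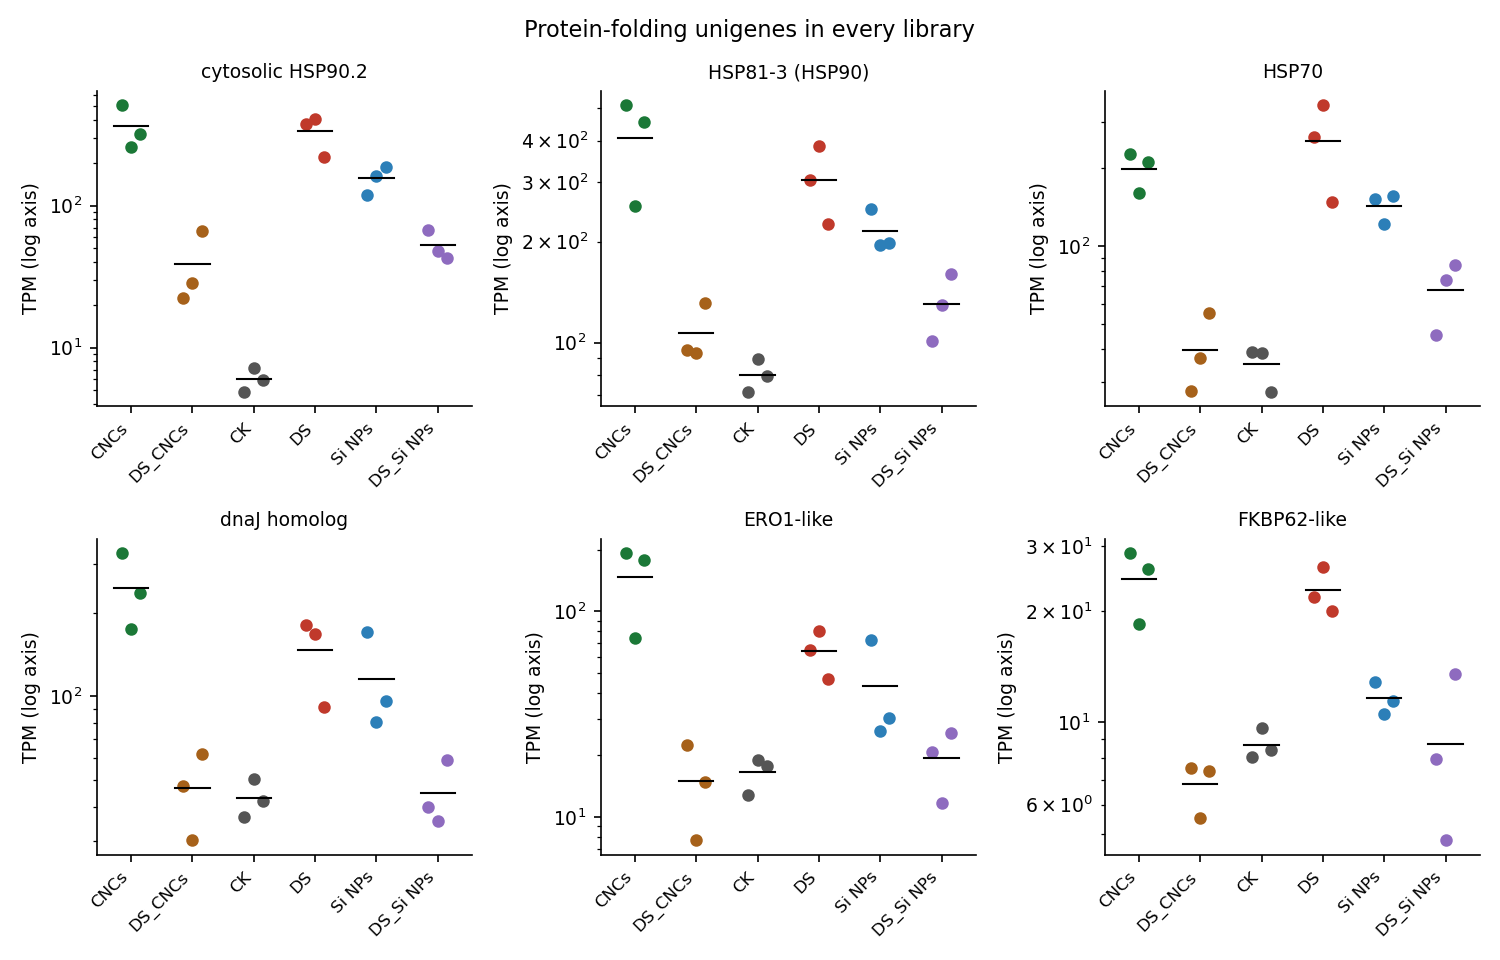
TPM on a log axis of 6 protein-folding unigenes in each of the 18 libraries (points), with group means (lines). In all 6 panels the 3 CNCs libraries lie above the 3 DS_CNCs libraries, while the CK libraries lie below the DS libraries.

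Across the list of HSP70, HSP90 and HSP101 chaperones, 2 of 113 tested members were called, both lower, and the median log2 fold change was -1.06 against 0.04 for all tested unigenes. Without adjustment 48 of the 113 (42.5%, against 6.93% of all tested) were lower at p below 0.05 and 2 (1.77%, against 6.46%) were higher. The newer edgeR form called 16 of the 113 lower and 0 higher, against 0.891% and 0.64% of all tested. Summed over the list, the level was 8864, 5023 and 7618 TPM in CNCs and 2976, 2858 and 3459 TPM in DS_CNCs, so the groups did not overlap. In CK the sums lay between 2526 and 3043 TPM and in DS between 5119 and 6708 TPM. The droughted CNC leaves thus overlapped with CK, and the watered CNC leaves with DS. The most abundant member, a heat shock cognate 70 kDa protein (DN9957_c0_g1), showed 984, 438 and 746 TPM in CNCs and 86.8, 52.7 and 227 TPM in DS_CNCs. Its log2 fold change of -2.29 ± 0.48 (SE) did not pass (adjusted p = 0.10), although the groups stood apart. The other abundant members were flatter. ClpC2, a chaperone of the chloroplast (DN937_c0_g1), read 429, 418 and 573 TPM and then 426, 327 and 356 TPM. Heat shock cognate 70 kDa protein 1 (DN11157_c0_g1) read 632, 326 and 441 TPM and then 325, 396 and 388 TPM, with overlap. Reads of such families can be shared out among near-identical unigenes by the counting step, so a single member is less certain than the list's sum.

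The medians of other heat-response lists did not follow the large chaperones. Of 114 dnaJ co-chaperones 1 was called, the homolog given above, and the list median was 0.09. At an unadjusted p below 0.05, 15 of them were lower (13.2%, against 6.93% of all tested) and 10 higher (8.77%, against 6.46%). The newer edgeR form called 5 of the 114 lower (against 0.891% of all tested) and 0 higher (against 0.64%). Small heat shock proteins, which hold unfolded proteins without ATP, had 0 of 33 members called and a median of -0.05, with 538, 684 and 501 TPM summed in CNCs and 423, 310 and 535 TPM in DS_CNCs. The same list had a median of 3.11 between CK and DS (3.13 without CK 3). There 13 of the 33 members were called higher, against 1.59% of all tested. Without CK 3 it was 1 member, and 102 of all 62744 unigenes tested in that fit. Heat stress transcription factors had 0 of 43 called and a median of 0.02. One factor, A-6a (DN2228_c0_g1), which was chosen after its values were seen, had 52.0, 32.6 and 45.4 TPM in CNCs and 1.99, 4.57 and 7.61 TPM in DS_CNCs. That was a log2 fold change of -3.36 ± 0.64 (SE) with an adjusted p of 0.066 in the main test and 0.015 in the newer form.

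Outside protein folding, the unigenes that fell and met the level rule of at least 20 TPM were a kinase, a phosphatase-like protein and a receptor. A serine/threonine protein kinase (DN2688_c0_g1) had 22.5, 30.9 and 8.43 TPM in CNCs and 1.68, 1.79 and 1.25 TPM in DS_CNCs. CNCs 3 was the lowest watered library and still lay above all droughted ones, and the log2 fold change was -3.53 ± 0.44 (SE; adjusted p = 0.019). Inactive purple acid phosphatase 27 (DN3516_c0_g1), of a family that includes phosphate-releasing enzymes, held 27.1, 33.3 and 21.9 TPM in CNCs and 4.99, 4.77 and 4.97 TPM in DS_CNCs. The droughted libraries were nearly equal to each other, at a log2 fold change of -2.27 ± 0.31 (SE; adjusted p = 0.024). A second unigene of the same name (DN1656_c0_g1) fell from 13.1, 19.2 and 7.65 TPM to 1.64, 1.46 and 2.76 TPM, also without overlap. Receptor kinase LRK10 (DN614_c3_g1), named for a kinase next to a rust resistance locus of wheat, fell from 26.8, 20.6 and 26.4 TPM to 6.93, 5.58 and 4.00 TPM. Its log2 fold change was -2.71 ± 0.42 (SE; adjusted p = 0.032), and all 3 droughted libraries were low.

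Among the 18 that fell, 7 with a product name had means under 20 TPM, the second phosphatase 27 unigene among them, and they are named because they are few. Their adjusted p lay between 0.024 and 0.050. Cell wall invertase (DN4450_c0_g1), which splits sucrose outside the cell, read 12.3, 18.0 and 12.1 TPM in CNCs and 0.87, 1.14 and 1.51 TPM in DS_CNCs, a log2 fold change of -3.48 ± 0.46 (SE; adjusted p = 0.024). It was the only one of 94 sucrose and fructan members called. The most abundant member of that list, another cell wall invertase (DN45583_c0_g1), read 74.8, 77.7 and 89.6 TPM in CNCs and 75.7, 250 and 398 TPM in DS_CNCs, a log2 fold change of 1.76 ± 0.61 (SE) that did not pass (adjusted p = 0.26). The 2 invertase unigenes thus had fold changes of opposite sign. The 5'-3' exoribonuclease 2 (DN6449_c0_g1), an RNA-degrading enzyme, fell from 11.3, 14.2 and 7.83 TPM to 0.69, 1.12 and 1.75 TPM. BAG6 (DN39266_c0_g1), a large proline-rich protein of the protein quality control machinery, fell from 13.2, 7.62 and 10.8 TPM to 0.17, 0.43 and 0.93 TPM. Both were low in each droughted library. Glutamate receptor 2.8-like (DN15733_c0_g1), a ligand-gated ion channel, fell from 2.85, 4.97 and 4.47 TPM to 0.44, 0.34 and 0.26 TPM. DETOXIFICATION 14-like (DN26507_c0_g1), an export carrier, fell from 2.16, 2.31 and 2.42 TPM to 0.19, 0.23 and 0.19 TPM. RPP13-like protein 2 (DN26814_c0_g3), a member of the disease resistance family, fell from 3.00, 3.01 and 1.39 TPM to 0.21, 0.14 and 0.20 TPM. The remaining 4 that fell (DN1329_c0_g1, DN12182_c0_g1, DN17202_c0_g1 and DN30771_c0_g1) had no product name.

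Light harvesting gave the clearest of the unigenes that rose. LHCII type 1 (DN41235_c0_g2), a chlorophyll-binding protein and part of the main antenna of photosystem II, stood at 28.9, 13.8 and 12.7 TPM in CNCs and at 366, 181 and 380 TPM in DS_CNCs. Each droughted library exceeded every watered one, and the log2 fold change was 4.28 ± 0.58 (SE; adjusted p = 0.024). Its mean was 60.7 TPM in CK, 44.7 TPM in DS, 64.0 TPM in Si NPs and 368 TPM in DS_Si NPs. The study lists this unigene among those raised by the particles, so it was chosen on these libraries. Cycloartenol synthase (DN3339_c0_g1), which makes the first ring compound of plant sterols, had 14.7, 10.4 and 14.9 TPM in CNCs and 53.8, 42.8 and 54.1 TPM in DS_CNCs. The groups were apart by a log2 fold change of 2.14 ± 0.31 (SE; adjusted p = 0.031), whereas CK and DS had means of 10.4 and 10.2 TPM. The other 3 that rose (DN21003_c0_g1, DN270_c0_g1 and DN53891_c0_g2) had no product name. The first of these read 43.2, 27.2 and 26.3 TPM in CNCs and 57.1, 183 and 112 TPM in DS_CNCs, with DS_CNCs 1 the closest to the watered libraries.

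Of the 16 unigenes with an adjusted p below 0.05 and a smaller fold, some of the chloroplast were higher. Cytochrome c6 (DN4294_c0_g1), an electron carrier, read 39.9, 23.1 and 25.1 TPM in CNCs and 60.2, 75.1 and 59.3 TPM in DS_CNCs, a log2 fold change of 1.35 ± 0.22 (SE; adjusted p = 0.040). Thioredoxin F (DN8457_c0_g1), which activates Calvin cycle enzymes in the light, read 118, 123 and 115 TPM against 212, 179 and 155 TPM, a log2 fold change of 0.79 ± 0.11 (SE; adjusted p = 0.029). The plastid gene ndhD (DN34300_c1_g1), a subunit of the NDH complex of cyclic electron flow, read 23.5, 19.2 and 14.3 TPM against 37.5, 41.7 and 27.5 TPM, a log2 fold change of 1.06 ± 0.18 (SE; adjusted p = 0.040). In these 3 unigenes no droughted library was as low as any watered one. Serine decarboxylase 1 (DN62_c0_g1), which makes ethanolamine, was also above its watered range, with 23.4, 18.0 and 25.2 TPM in CNCs, 54.4, 77.9 and 69.3 TPM in DS_CNCs and a log2 fold change of 1.52 ± 0.26 (SE; adjusted p = 0.047).

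**Figure D3:**
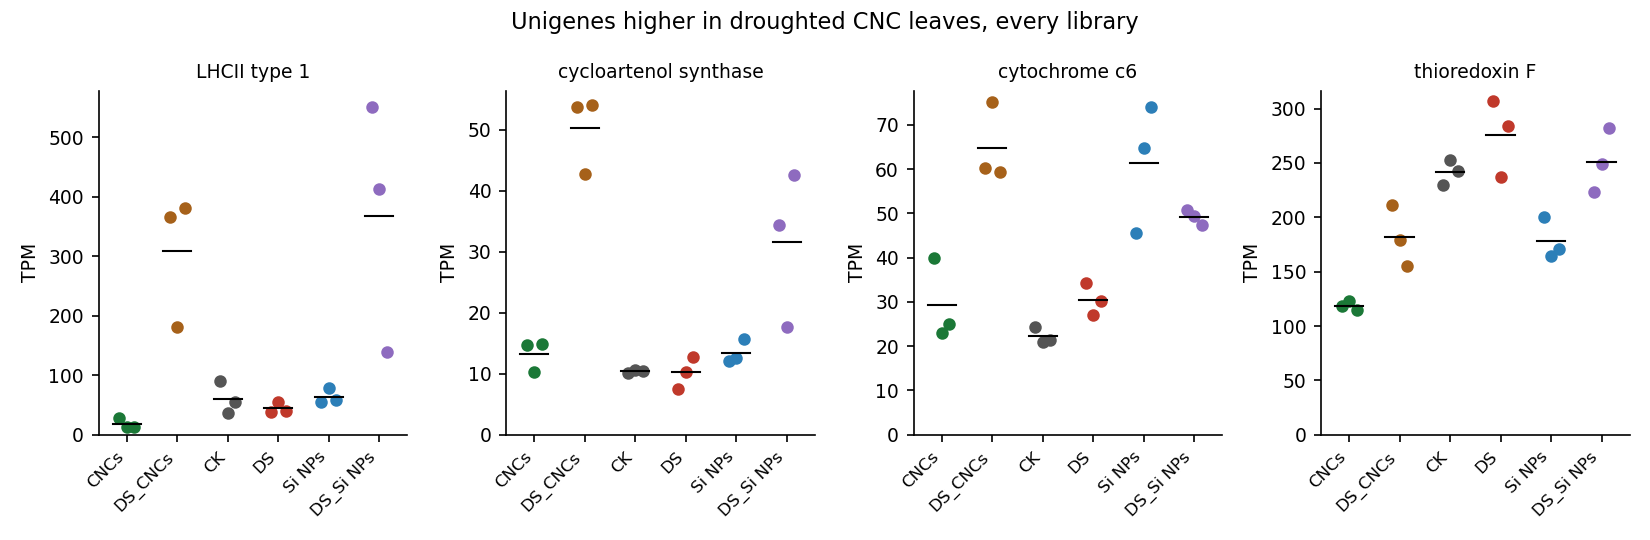
TPM of 4 unigenes in each of the 18 libraries (points), with group means (lines) on axes that start at 0. The 3 DS_CNCs libraries lie above the 3 CNCs libraries in each panel, and for LHCII type 1 the CNCs libraries, at 12.7 to 28.9 TPM, are the lowest of all groups.

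Over the whole antenna list, 1 of 65 tested members was called, and the median log2 fold change was 1.20. A total of 59 members lay above 0 (90.8%, against 52.2% of all tested) and 6 below. At an unadjusted p below 0.05, 36 were higher (55.4%, against 6.46% of all tested) and 1 was lower (1.54%, against 6.93%). The newer edgeR form called 5 of the 65 higher and 0 lower, against 0.64% and 0.891% of all tested. Summed antenna level was 23000, 22040 and 26240 TPM in CNCs and 38590, 42450 and 44850 TPM in DS_CNCs, without overlap. In CK the sums lay between 38447 and 66299 TPM and in DS between 41668 and 53820 TPM, so the watered CNC leaves held the lowest antenna level of these groups. The most abundant member, chlorophyll a-b binding protein 4 (DN2319_c0_g1), read 2686, 3158 and 3196 TPM in CNCs and 4282, 6364 and 4997 TPM in DS_CNCs, at a log2 fold change of 0.82 ± 0.17 (SE; adjusted p = 0.10). Chlorophyll a-b binding protein 8 (DN3931_c0_g1) read 2281, 2211 and 2632 TPM against 3136, 3889 and 3859 TPM, at 0.76 ± 0.18 on the log2 scale (SE; adjusted p = 0.13). Both were higher in all droughted libraries but did not pass.

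The photosynthesis lists beyond the antenna had smaller medians. The list of subunits of both photosystems, of cytochrome b6f and of the ATP synthase in chloroplasts had 0 of 49 members called and a median of 0.53. Its sums were 37470, 33310 and 34180 TPM in CNCs and 40960, 40360 and 46190 TPM in DS_CNCs, higher without overlap. Without adjustment, 21 of the 49 were higher (42.9%, against 6.46% of all tested) and 2 lower (4.08%, against 6.93%) at p below 0.05. Calvin cycle members, headed by the small subunit of Rubisco, had 0 of 27 called and a median of 0.30. Their sums of 49910, 36890 and 36790 TPM in CNCs and 45400, 35510 and 50900 TPM in DS_CNCs overlapped. Chlorophyll synthesis members had 0 of 32 called and a median of 0.07. Early light-inducible proteins, which bind pigment when light is in excess, had 0 of 9 called and a median of 0.34.

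The groups most often used to mark drought held no called member. With 0.0411% of all tested unigenes called, lists of this size would hold none at the same share, so their counts of 0 do not set them apart. LEA proteins and dehydrins had 0 of 28 members called and a median of 0.10, with sums of 1805, 2192 and 2438 TPM in CNCs and 1700, 1145 and 3236 TPM in DS_CNCs. DS_CNCs 2 was the lowest and DS_CNCs 3 the highest of the 6. Between CK and DS the median of the list was 2.08 (2.03 without CK 3), and DS reached 3477 to 9062 TPM. The most abundant member (DN3211_c0_g1) read 686, 1198 and 739 TPM in CNCs and 581, 516 and 803 TPM in DS_CNCs. LEA14 was found as 6 unigenes, none of them called. The largest (DN11006_c0_g1) read 74.8, 114 and 145 TPM and then 59.0, 67.0 and 86.4 TPM, with overlap. Synthesis and breakdown of abscisic acid, the drought hormone, had 0 of 11 called and a median of -0.22, and its receptors, PP2C phosphatases and SnRK2 kinases had 0 of 128 called and a median of 0.01. Aquaporins, the water channels, had 0 of 29 called and a median of 0.06. Trehalose and raffinose metabolism had 0 of 60 called and a median of 0.06.

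Proline and betaine metabolism had 0 of 10 members called in the main test, and its abundant members differed among themselves. Proline dehydrogenase, which degrades proline, was present as a pair of abundant unigenes. The first (DN130431_c0_g1) read 86.2, 45.2 and 63.5 TPM in CNCs and 10.3, 7.58 and 14.7 TPM in DS_CNCs, a log2 fold change of -2.34 ± 0.86 (SE) with an adjusted p of 0.28 in the main test and 0.011 in the newer form. The second (DN5934_c0_g1) read 48.5, 55.5 and 66.3 TPM against 17.0, 12.7 and 21.3 TPM, a log2 fold change of -1.50 ± 0.38 (SE; adjusted p = 0.15). Neither overlapped between the groups, and neither passed the main test. Betaine aldehyde dehydrogenase 2 (DN14423_c0_g1), which makes glycine betaine, read 58.2, 56.3 and 76.6 TPM against 89.3, 56.7 and 65.8 TPM, with overlap.

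Phenylpropanoid and lignin genes, which lead to wall polymers and phenolics, had 0 of 125 members called and a median of -0.92, with 91 below 0. At an unadjusted p below 0.05, 37 were lower (29.6%, against 6.93% of all tested) and 7 higher (5.6%, against 6.46%). Their sums were 1818, 3405 and 3606 TPM in CNCs and 1203, 700 and 1170 TPM in DS_CNCs. In CK, which DS_CNCs overlapped, they lay between 797 and 1253 TPM, and in DS between 1996 and 4981 TPM. Phenylalanine ammonia-lyase, the entry enzyme, gave the 3 most abundant members. One of them (DN2318_c0_g1) read 137, 452 and 482 TPM in CNCs and 74.5, 12.3 and 74.8 TPM in DS_CNCs, a log2 fold change of -2.60 ± 1.05 (SE; adjusted p = 0.31). Another (DN9083_c0_g1) read 78.4, 450 and 277 TPM against 63.2, 22.5 and 64.0 TPM, at -1.80 ± 0.58 on the log2 scale (SE; adjusted p = 0.23). CNCs 1 was far below the other watered libraries in both, and DS_CNCs 2 was the lowest of all. Genes of cellulose, hemicellulose, expansin and pectin had 0 of 147 called and a median of 0.00, and class III peroxidases had 0 of 60 called and a median of -0.24.

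Glutathione S-transferases, which couple glutathione to reactive compounds, had 0 of 71 members called and a median of -0.92. Their sums did not overlap, at 1656, 1753 and 1556 TPM in CNCs and 1003, 894 and 942 TPM in DS_CNCs. Lower sums without overlap also occurred in lists with little median change, given below. In CK, which DS_CNCs overlapped, they lay between 852 and 941 TPM, and in DS between 1270 and 2333 TPM. Between CNCs and DS_CNCs 18 members were lower (25.4%, against 6.93% of all tested) and 2 higher (2.82%, against 6.46%) at an unadjusted p below 0.05. The unigene GST 1-like (DN9315_c0_g1) read 126, 111 and 127 TPM in CNCs and 54.1, 34.9 and 58.0 TPM in DS_CNCs, a log2 fold change of -1.05 ± 0.22 (SE; adjusted p = 0.096). Enzymes of the ascorbate-glutathione cycle had 0 of 25 called and a median of -0.07, and catalases with superoxide dismutases had 0 of 20 called and a median of -0.27.

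Receptor-like and wall-associated kinases, which sense signals at the cell surface, had 1 of 865 members called and a median of -0.53, with 599 below 0 and 262 above. The sums of 7023, 7363 and 6970 TPM in CNCs and 4227, 4237 and 4691 TPM in DS_CNCs did not overlap, and at an unadjusted p below 0.05, 192 were lower (22.2% of the list, against 6.93% of all tested) and 30 were higher (3.47%, against 6.46%). Sums in CK lay between 3552 and 4978 TPM and in DS between 4001 and 5460 TPM, so the watered CNC leaves held the highest level of these groups. Somatic embryogenesis receptor kinase 2-like (DN89_c0_g1), the most abundant, read 237, 288 and 228 TPM in CNCs and 155, 123 and 175 TPM in DS_CNCs, at -0.48 ± 0.17 on the log2 scale (SE; adjusted p = 0.27). Disease resistance proteins with nucleotide-binding and leucine-rich repeats had 1 of 446 called, the RPP13-like unigene, and a median of -0.36. Their sums were 2502, 2706 and 2588 TPM in CNCs and 1878, 1995 and 2139 TPM in DS_CNCs. Sugar transporters had 0 of 66 called, a median of -0.53, and 19 lower (28.8%, against 6.93% of all tested) with 0 higher (against 6.46%) at an unadjusted p below 0.05. The ERD6-like 4 carrier (DN2720_c0_g1) read 48.1, 69.0 and 69.1 TPM in CNCs and 32.3, 23 and 27.4 TPM in DS_CNCs, a log2 fold change of -0.82 ± 0.21 (SE; adjusted p = 0.16). Ribosomal proteins had a median of -0.03, while their sums also stood apart, at 35580, 39030 and 34020 TPM in CNCs and 31280, 30910 and 28120 TPM in DS_CNCs. So did auxin response sums (median 0.08), at 1875 to 1933 TPM in CNCs and 1627 to 1829 TPM in DS_CNCs. Starch genes (median -0.06) were apart as well, at 1131 to 1252 TPM and 952 to 1128 TPM. Sums that stand apart therefore do not by themselves set a list apart. TPM is a share, so a higher level of some unigenes lowers the shares of the others. Antenna sums had means of 23757 TPM in CNCs and 41962 TPM in DS_CNCs. The scaling factors of the libraries in edgeR were 1.18 in each CNCs library and 0.97 to 1.10 in DS_CNCs. The part of either in these lower sums was not tested.

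**Figure D4:**
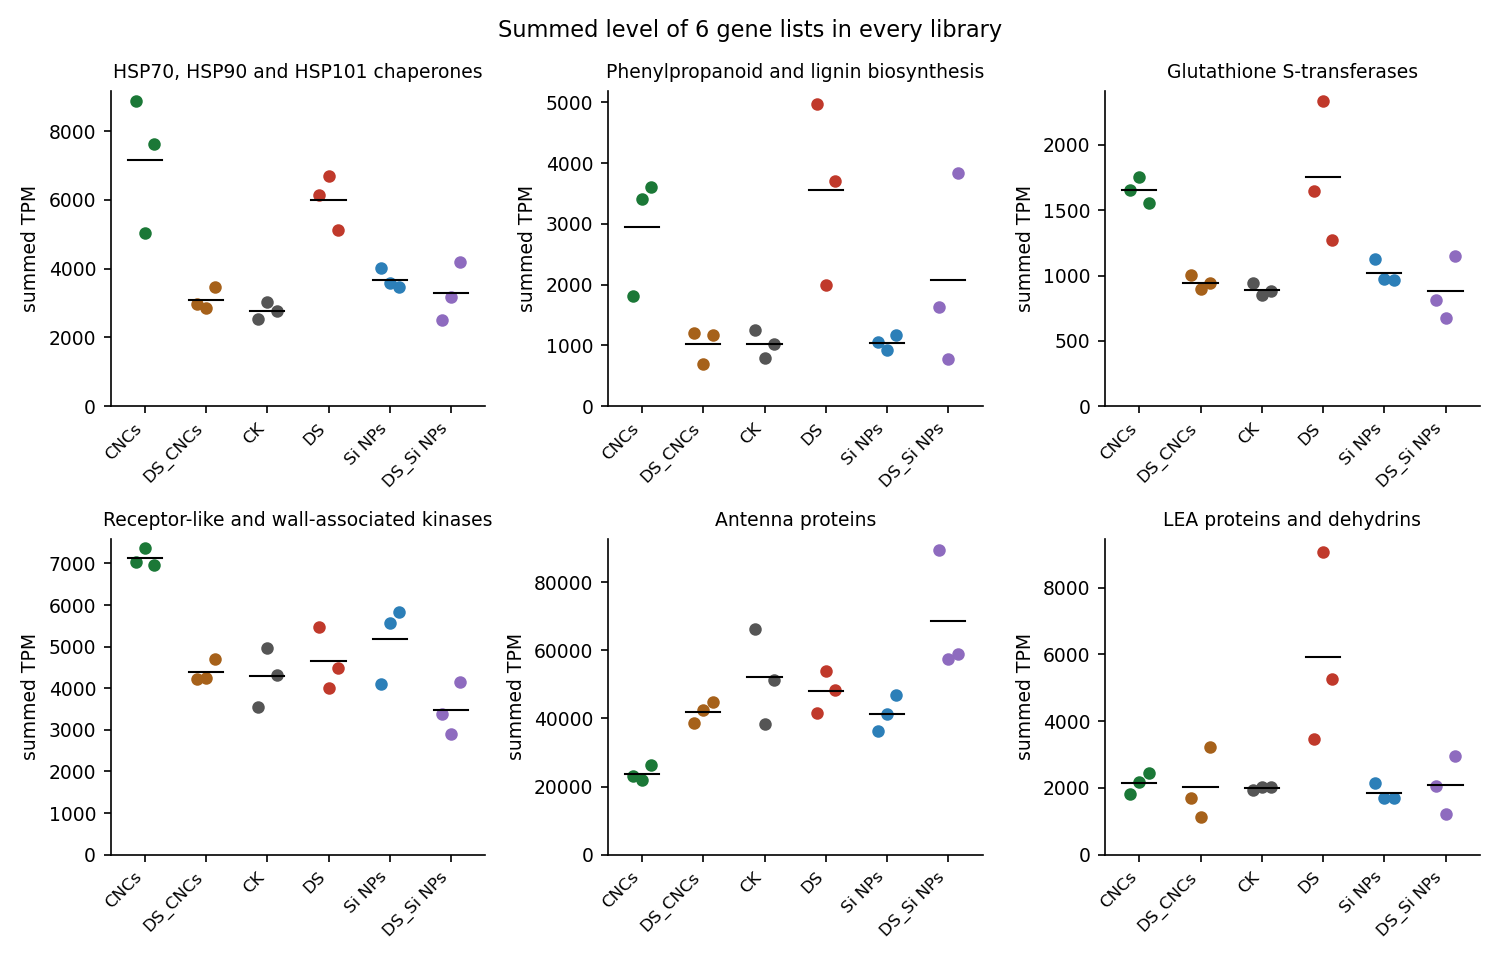
Summed TPM of the members of 6 gene lists in each of the 18 libraries (points), with group means (lines). DS_CNCs lies below CNCs without overlap for chaperones, phenylpropanoid genes, glutathione S-transferases and kinases and above it for antenna proteins, and the groups overlap for LEA proteins.

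Stress-linked transcription factors varied strongly among the droughted libraries. WRKY factors, which act in defence and senescence, summed to 2958, 2897 and 4288 TPM in CNCs and to 1836, 730 and 4762 TPM in DS_CNCs. NAC factors summed to 2368, 1470 and 2750 TPM and then to 1217, 564 and 2656 TPM. In both lists DS_CNCs 2 was the lowest and DS_CNCs 3 the highest of the droughted libraries. A WRKY unigene (DN4637_c1_g1) read 292, 193 and 481 TPM in CNCs and 143, 19 and 442 TPM in DS_CNCs. A NAC 67-like unigene (DN12114_c0_g1) read 473, 191 and 623 TPM and then 227, 20.0 and 749 TPM. Of 94 WRKY and 87 NAC members 0 were called, with medians of -0.24 and -0.60. AP2/ERF and DREB factors, which bind drought and cold elements, had 0 of 132 called and a median of 0.33, and lipoxygenase and jasmonate genes had 0 of 108 called and a median of -0.45.

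The drought change with CNCs was set against the change without particles. Drought called 1127 unigenes between CK and DS (2.01% of those tested), 890 of them higher (1.59%) and 237 lower (0.423%). Leaving out CK 3 cut this to 150. It was 447 without CK 1, 245 without CK 2, 359 without DS 2, and 781 and 996 without DS 1 and DS 3. The number called between CK and DS and between CNCs and DS_CNCs does not by itself compare the responses, so the difference of the 2 log2 fold changes was tested in the same edgeR fit. This difference was called at 1099 unigenes (1.96%). It was lower with CNCs at 789 (1.41%) and higher at 310 (0.554%). With 1 library left out the count lay between 285 (without CK 3) and 678 (without DS 1), except for 1171 without DS 3 and 1637 without DS_CNCs 3. Of the 789, 754 went up between CK and DS and down between CNCs and DS_CNCs, 32 went up in both and 3 went down in both. Of the 310, 300 went down between CK and DS and up with CNCs. Both fold changes served to choose these unigenes, which favours opposite signs. Of the 754, 400 were called between CK and DS and 14 between CNCs and DS_CNCs. Of the 300, these counts were 105 and 3. Across the 55979 unigenes, which are not independent, the log2 fold changes of both comparisons had a Spearman rho of 0.003.

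The unigenes called between CK and DS were followed into the CNC libraries, which do not enter that fold change but share its filter, scaling and estimate of the spread. Of the 890 called higher by drought without particles, 552 (62.0%) were below 0 with CNCs, against 47.7% of all tested, and their median was -0.26. At an unadjusted p below 0.05, 15.8% of them were lower with CNCs and 2.92% were higher. Of the 237 called lower, 62.0% were above 0 with CNCs, against 52.2% of all tested, and their median was 0.35. With CK 3 left out, 71.0% of 100 were below 0 (median -0.28) and 79.2% of 48 were above 0 (median 0.58). With CK and DS fitted on their own, 63.4% of 1174 called higher were below 0 with CNCs (median -0.30), but of 301 called lower only 44.9% were above 0 (median -0.17), so the direction of the second set did not hold there.

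**Figure D5:**
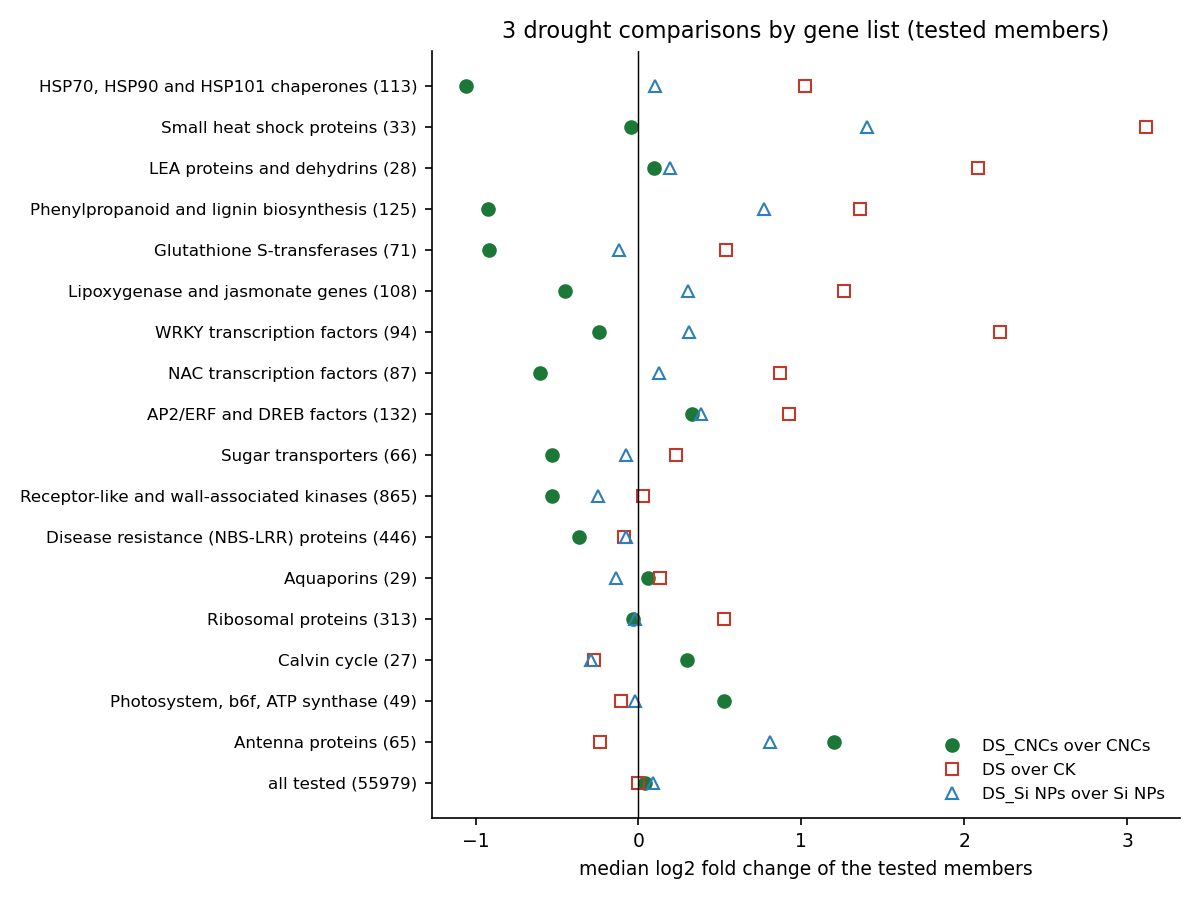
Median log2 fold change of the tested members of 17 gene lists, with the number of members in brackets, and of all tested unigenes. Filled circles are DS_CNCs over CNCs, squares DS over CK, and triangles DS_Si NPs over Si NPs. Chaperones lie at -1.06 with CNCs and 1.02 without particles, and antenna proteins at 1.20 and -0.24.

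Chaperones were among the unigenes of this difference. It was called, always lower with CNCs, at 27 of the 113 members of the HSP70, HSP90 and HSP101 list (23.9%, against 1.41% of all tested). Without CK 3 it was called lower at 14 members, and at 189 of all 62744 unigenes tested in that fit. For HSP90.2 (DN28213_c0_g1) the difference was -9.04 on the log2 scale (adjusted p = 5.8e-05), made of 6.08 without particles and -2.96 with CNCs. A second HSP90.2 unigene (DN14584_c0_g1) had a difference of -5.42, with 74.0, 48.2 and 73.0 TPM in CNCs and 6.91, 19.2 and 11.9 TPM in DS_CNCs. The HSP70 unigene (DN10941_c0_g1) had a difference of -5.22, and HSP81-3 (DN2054_c0_g1) one of -4.01. Of the 23 unigenes called between CNCs and DS_CNCs, 21 were also called in the difference, which uses the same CNC libraries. Only 3 of them were called between CK and DS. HSP90.2 (DN28213_c0_g1) and HSP70 (DN10941_c0_g1) rose there, and DETOXIFICATION 14-like (DN26507_c0_g1) fell in both.

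Other unigenes lower in the difference were high in droughted leaves without particles. NRT1/PTR family 2.11-like (DN828_c0_g1), of a family of nitrate and peptide carriers, had a mean of 26.1 TPM in CK and 161 TPM in DS, but 40.2, 55.9 and 81.9 TPM in CNCs and 32.5, 25.0 and 32.4 TPM in DS_CNCs. The difference was -3.63 (adjusted p = 0.0012). Jacalin-related lectin 3 (DN5316_c0_g1), a carbohydrate-binding protein, had 1.37 TPM in CK and 31.9 TPM in DS, with 3.63, 6.67 and 4.99 TPM in CNCs and 3.32, 5.33 and 2.04 TPM in DS_CNCs. GID1 (DN6487_c7_g1), named as a gibberellin receptor, had 4.15 TPM in CK and 21.9 TPM in DS, with 8.46, 8.31 and 10.7 TPM in CNCs and 4.57, 4.88 and 5.27 TPM in DS_CNCs. In the lectin the CNC groups overlapped, and in the other pair they did not. Purple acid phosphatase 27 (DN3516_c0_g1) had a difference of -3.70.

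The unigenes higher in the difference were mostly above 0 with CNCs, at 303 of the 310 with a median of 1.34, values that helped to choose them. ERD15-like (DN9540_c0_g1), an early dehydration-responsive protein, had a mean of 581 TPM in CK and 177 TPM in DS, and read 299, 393 and 246 TPM in CNCs and 543, 446 and 407 TPM in DS_CNCs. The difference was 2.48 on the log2 scale (adjusted p = 0.0007). XB3-like (DN3524_c0_g2), a ubiquitin ligase whose rice namesake binds the immune receptor XA21, had means of 100.3 and 31.0 TPM without particles and 43.1, 30.6 and 30.9 TPM in CNCs against 59.3, 84.9 and 77.5 TPM in DS_CNCs. It was higher with CNCs in all 3 droughted libraries, by a log2 fold change of 1.29 ± 0.20 (SE; adjusted p = 0.032), and the difference was 2.91. RLIM-like (DN6343_c0_g1), another ubiquitin ligase, had means of 68.7 and 15.3 TPM without particles and 59.7, 63.9 and 54.7 TPM in CNCs against 84.4, 57.0 and 58.0 TPM in DS_CNCs, with overlap and a difference of 2.48. CO3-like (DN7783_c0_g1), of the CONSTANS family of light and flowering regulators, had means of 85.7 and 16.8 TPM without particles and 33.9, 29.5 and 24.2 TPM in CNCs against 64.2, 83.4 and 46.0 TPM in DS_CNCs, with a difference of 3.34. Of the 16 unigenes named for the difference, all kept their call without CK 3.

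At the level of lists, shares are given against the 1.41% of all tested unigenes for which the difference was lower and the 0.554% for which it was higher. It was called lower for 23 of 125 phenylpropanoid members (18.4%), 17 of 94 WRKY factors (18.1%), 7 of 33 small heat shock proteins (21.2%), 14 of 108 lipoxygenase and jasmonate members (13.0%), 8 of 66 sugar transporters (12.1%), 7 of 71 glutathione S-transferases (9.86%) and 35 of 865 kinases (4.05%). For the antenna list it was called higher at 5 of 65 (7.69%). With 1 library left out these counts varied widely. Phenylpropanoid calls ranged from 5 to 22, WRKY from 5 to 21, small heat shock proteins from 1 to 7, lipoxygenase and jasmonate from 5 to 22, sugar transporters from 0 to 9, glutathione S-transferases from 4 to 10 and kinases from 3 to 59. Each of these lists had its lowest count without CK 3. In that fit the difference was called lower at 189 of all 62744 unigenes tested, against 789 of 55979 in the main fit. The antenna count ranged from 1 to 7 and was lowest without CK 1, CNCs 2 or CNCs 3. Over all tested unigenes these fits called 159, 104 and 110 higher, against 310 in the main fit.

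Drought with silicon nanoparticles was the remaining comparison. It called 11 unigenes (0.0197% of those tested), none of them among the 23 called with CNCs. The difference between the drought changes with CNCs and with Si NPs was called at 0 unigenes in edgeR's main test. At an unadjusted p below 0.05 that difference held 5515 unigenes (9.85%), and the newer edgeR form called 17 (0.0304%), DESeq2 528 and limma 39. The unigenes of the CNC comparison did not pass with Si NPs. LHCII type 1 (DN41235_c0_g2) had a log2 fold change of 2.52 with Si NPs (adjusted p = 0.097), cycloartenol synthase (DN3339_c0_g1) 1.21 (adjusted p = 0.16) and HSP90.2 (DN28213_c0_g1) -1.57 (adjusted p = 0.18). The list medians with Si NPs were 0.81 for antenna proteins and 0.10 for HSP70, HSP90 and HSP101 chaperones.

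A set of 18 unigenes named by identifier in the study as raised with particles was also read, a set chosen on these libraries. Between CNCs and DS_CNCs 15 of them lay above 0 and 3 below, and only LHCII type 1 (DN41235_c0_g2) was called among them. Of all tested unigenes, 52.2% lay above 0 and 47.7% below. All 3 droughted libraries were higher in 6, lower in 2, and overlapped with the watered ones in 10. Over all tested unigenes they were higher in 7.53% and lower in 17.4%. The 3 below 0 were an Lhcb1 antenna unigene (DN34697_c0_g1), which read 32.7, 1466 and 63.4 TPM in CNCs and 207, 10.2 and 327 TPM in DS_CNCs, the DHAR2 unigene (DN121132_c0_g1) and a silicon transporter (DN20900_c0_g1). In the Lhcb1 unigene CNCs 2 was far above every other library of the 6. An aquaporin PIP2-7 (DN2790_c1_g1) read 4.10, 1.75 and 1.84 TPM in CNCs and 14.8, 14.2 and 5.50 TPM in DS_CNCs, a log2 fold change of 2.46 ± 0.62 (SE; adjusted p = 0.15). A CRT-binding factor (DN37211_c0_g1), of the cold and drought regulators, read 8.02, 0.23 and 5.54 TPM against 26.1, 37.3 and 15.4 TPM, at 2.72 ± 1.11 on the log2 scale (SE; adjusted p = 0.32). Cinnamoyl CoA reductase (DN7634_c0_g1), of lignin synthesis, read 4.00, 3.26 and 4.64 TPM against 8.50, 6.57 and 7.49 TPM, at 1.27 ± 0.51 (SE; adjusted p = 0.31). The droughted libraries were higher without overlap in these 3 unigenes, and none passed.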

How the data were processed

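Leaf RNA (poly(A)-selected, strand-marked paired-end libraries) was measured in 18 libraries of 6 groups, grouped by the labels. The authors used cutadapt and FastQC to clean and check the reads, built unigenes in Trinity without a genome, described them by DIAMOND protein matches and quantified them with Salmon. They deposited estimated counts, which need not be whole, and TPM, which has the same sum in each library. Genome position and build did not apply. The estimated counts were rounded to whole numbers. Low unigenes were removed with filterByExpr, libraries were scaled by TMM, and all 18 libraries entered 1 quasi-likelihood fit of 6 group means in edgeR 4.0.16 (R 4.3.3), so fold changes are ratios of scaled counts and not of the TPM printed beside them. P-values were adjusted by Benjamini-Hochberg over all tested unigenes. The thresholds were an adjusted p of 0.05 and a log2 fold change of 2, the authors' own, and ± marks an SE for fold changes and an SD for levels. The test was run on simulated counts with known changes, as a check on the sign and size of fold changes. That check set no limit on missed or false calls.

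The members and lists were chosen with earlier results of these data known. Named unigenes were up to 20 per direction with the lowest adjusted p, a product name, 20 TPM in the higher group, no overlap between groups and at most 2 per name. In each of 54 word-defined lists they were the 3 most abundant members over the 6 libraries and up to 4 called, and for the difference 8 per direction by the same rule, with no overlap in at least 1 of its comparisons. The study's listed unigenes and LEA14 were added. Wrong word matches were removed from 6 lists by their names and not their values. Alternatives were DESeq2 1.42.0, limma 3.58.1 on log2(TPM + 0.5), other filters and scalings, single libraries left out, the replicate number as a block, and the newer edgeR form. The total count sets only the counting error of a unigene.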

Additional observations from a re-analysis of the deposited data

Results flagged for a closer look

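The drought change with CNCs differed from the drought change without particles, by a test of the difference itself in edgeR, at 1099 unigenes. The named unigenes below were those with the lowest adjusted p in each direction, and the values are differences of log2 fold changes, with CNCs minus without particles. Higher with CNCs were XB3-like (DN3524_c0_g2) by 2.91, RLIM-like (DN6343_c0_g1) by 2.48, ERD15-like (DN9540_c0_g1) by 2.48, heparan-alpha-glucosaminide N-acetyltransferase (DN6034_c0_g1) by 2.26, CCCH zinc finger protein 53 (DN8670_c0_g1) by 2.10, the BTB/POZ protein At5g67385 (DN4642_c0_g1) by 2.56, CO3-like (DN7783_c0_g1) by 3.34 and CCCH zinc finger protein 54-like (DN119089_c0_g1) by 4.50.

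Lower with CNCs were HSP90.2 (DN28213_c0_g1) at -9.04, a second HSP90.2 unigene (DN14584_c0_g1) at -5.42, HSP70 (DN10941_c0_g1) at -5.22, Jacalin-related lectin 3 (DN5316_c0_g1) at -4.88, HSP81-3 (DN2054_c0_g1) at -4.01, purple acid phosphatase 27 (DN3516_c0_g1) at -3.70, NRT1/PTR family 2.11-like (DN828_c0_g1) at -3.63 and GID1 (DN6487_c7_g1) at -3.21. All 16 passed also without CK 3.

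CCCH zinc finger protein 54-like had 12.1, 5.56 and 8.39 TPM in CNCs and 30.7, 39.0 and 34.2 TPM in DS_CNCs, against means of 19.7 TPM in CK and 3.30 TPM in DS. The BTB/POZ protein had 40.8, 32.3 and 38.9 TPM in CNCs and 54.8, 43.9 and 33.9 TPM in DS_CNCs, with overlap, against 48.9 and 9.74 TPM in CK and DS. CCCH zinc finger protein 53 had 21.2, 20.7 and 24.2 TPM in CNCs and 27.0, 42.6 and 26.2 TPM in DS_CNCs, against 35.8 and 12.2 TPM in CK and DS. The N-acetyltransferase had 25.8, 26.1 and 28.7 TPM in CNCs and 22.3, 32.0 and 28.4 TPM in DS_CNCs, with overlap, against 32.8 and 11.1 TPM in CK and DS.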

How the results depend on the processing

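The fold changes of the 23 called unigenes and the differences of the 16 named for the difference kept their sign under each alternative that tested them, though many lost their call. The count called between CNCs and DS_CNCs, 23 in the main fit, was 1020 with DESeq2, 857 with the newer edgeR form, 529 with edgeR's exact test, 339 with limma on TPM, 37 at a log2 threshold of 1, and 0 to 13 with 1 library left out. It was 20 with RLE scaling, 30 at a mean of at least 5 TPM, 17 without a filter and 18 with only the 6 libraries fitted, of which 3 were among the 23. All 23 were called with DESeq2, the exact test and the newer form. Between CK and DS, 1127 became 3212 (DESeq2), 2773 (newer form), 2190 (exact test), 1781 (threshold of 1), 746 (no filter) and 150 to 996 with 1 library left out. Between Si NPs and DS_Si NPs, 11 became 622 (DESeq2), 187 (exact test), 53 (newer form), 33 (threshold of 1), 20 (limma), 19 (at least 5 TPM), 3 (no filter), 0 (only those libraries fitted) and 0 to 6 with 1 left out. The difference between CNCs and no particles, 1099, became 3350 (DESeq2), 2379 (newer form), 676 (no filter) and 285 to 1637 with 1 left out. The difference between CNCs and Si NPs, 0, became 528 (DESeq2), 39 (limma) and 17 (newer form), and stayed 0 with any 1 library left out. The cause was not tested. The split between CNCs and DS_CNCs was 5 higher and 18 lower in the main fit, 385 and 635 with DESeq2, 358 and 499 with the newer form, 172 and 357 with the exact test, 118 and 221 with limma, and 1 and 0 without DS_CNCs 1. Between Si NPs and DS_Si NPs it was 7 and 4, and 0 and 2 with the replicate number as a block. limma on TPM moved the median of all unigenes from 0.04 to -0.17 between CNCs and DS_CNCs.

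With the replicate number as a block, 10 unigenes were called between CNCs and DS_CNCs, 8 of them among the 23, and 2 between Si NPs and DS_Si NPs. Deviations of same-numbered CNCs and DS_CNCs libraries correlated at 0.038, 0.042 and 0.036, each library best with its own number. Same-numbered CK and DS libraries gave -0.032, 0.004 and 0.021, and Si NPs and DS_Si NPs libraries gave 0.114, 0.16 and -0.023. These values come from the data and not from the design, so the numbers were not taken as pairs.

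With 3 libraries a group and many families of near-identical unigenes, single members at low TPM are the least certain, and the newer form calls more of them.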

Other observations

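Transport and nutrient groups outside the comparisons above held no called member, where 0.0411% of all tested unigenes were called, so a count of 0 does not set them apart. Nitrate, ammonium and amino acid genes had 0 of 218 called and a median log2 fold change of -0.15. Glutamine synthetase 1b (DN1599_c0_g1), which assimilates ammonium in the cytosol, read 196, 213 and 252 TPM in CNCs and 137, 50.6 and 139 TPM in DS_CNCs. Phosphate, potassium and silicon transport had 0 of 71 called, and inorganic phosphate transporter 1;6 (DN690_c0_g1) read 65.6, 74.7 and 76.1 TPM in CNCs and 20.2, 14.4 and 26.2 TPM in DS_CNCs, a log2 fold change of -1.72 ± 0.51 (SE; adjusted p = 0.20 in edgeR). Both were lower in every droughted library, and neither passed. Iron and metal genes had 0 of 125 called and a median of 0.05. Zinc transporter 8-like (DN39190_c0_g1), chosen after its values were seen, read 47.3, 34.6 and 85.7 TPM in CNCs and 10.3, 5.11 and 2.61 TPM in DS_CNCs, with an adjusted p of 0.14 in the main test and 0.0086 in the newer form.

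Circadian clock and light signalling genes had 0 of 82 called and a median of 0.19, auxin response genes 0 of 132 and 0.08, cell division and histone genes 0 of 271 and 0.10, and cuticle and wax genes 0 of 135 and 0.00. Peptidases had 0 of 194 called and a median of -0.20, with sums of 4868 to 5458 TPM in CNCs and 3481 to 3828 TPM in DS_CNCs. Genes often used as references summed to 19560 to 20670 TPM in CNCs and 11070 to 18270 TPM in DS_CNCs, without overlap, and had 0 of 123 called. Light-induced protein 1-like (DN8291_c0_g1) read 93.6, 112 and 103 TPM in CNCs and 330, 489 and 404 TPM in DS_CNCs, a log2 fold change of 2.22 ± 0.46 (SE) with an adjusted p of 0.10 in the main test and 0.026 in the newer form, and its means were 318 TPM in CK and 70.0 TPM in DS.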
